A study of Homo sapiens with 4 samples.

Results

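The metallothioneins and their zinc response genes were followed in BE(2)C cells after knockdown of MYCN. The genes comprised 8 metallothioneins (MT2A, MT1E, MT1F, MT1G, MT1M, MT1X, MT1L and MT3), the transcription factor gene MTF1 and the zinc exporter gene SLC30A1, which are 10 of the 26360 uniquely named genes listed in each sample. They were picked by name, and the list was drawn up because MT2A had the largest fall of the tested genes between the conditions on the log2(RPKM + 1) scale. The differences between MYCN knockdown and control at these 10 genes are therefore given as a description. Where a count of calls among them is printed, it is no test of the list. BE(2)C is a clonal MYCN-amplified human neuroblastoma cell line, and RNA was sequenced from 2 samples per condition. Levels were deposited as RPKM values (reads scaled to gene length and to the sample's total). Control cells (Ctrl, genotype wild type in the sample labels) were transfected with non-targeting siRNA, while a single siRNA against MYCN was used for the knockdown (MYCN KD). The labels give 80 nM siRNA with a lipid transfection reagent for 6 h in both conditions and RNA extraction on the next day, while the study's methods give a lower final siRNA concentration.

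Metallothioneins are small, cysteine-rich proteins that bind zinc and copper and buffer their free levels, and they also bind toxic metals such as cadmium. When free zinc rises, the zinc finger factor MTF-1 binds metal response elements in metallothionein promoters and in the promoter of SLC30A1, whose protein ZNT1 carries zinc out of the cell. MT2A and the MT1 genes are expressed in many tissues and also respond to glucocorticoids and oxidative stress, whereas MT3 is best known from the brain. The functional genes lie side by side on chromosome 16.

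The promoters of the members are shown first because MTF-1 is known to act through an element in such promoters. The RefSeq table (GRCh38.p14) held a promoter for 4 of the 10 genes, MT2A, MT1X, SLC30A1 and MTF1. The 250 bases before each gene start were searched on both strands for the core of the metal response element, TGCACNC or TGCGCNC, and capitals mark the matches. The first promoter belongs to MT2A (chr16:56608334-56608583, plus strand), the second to the other metallothionein with a mean RPKM of at least 1 (chr16:56682220-56682469, plus strand) and the third to the zinc exporter (chr1:211579162-211579411, minus strand). The fourth, of MT1H (chr16:56669564-56669813, plus strand), is shown because it is dense in the same core although the gene was listed at 0 in all 4 samples.
MT2A: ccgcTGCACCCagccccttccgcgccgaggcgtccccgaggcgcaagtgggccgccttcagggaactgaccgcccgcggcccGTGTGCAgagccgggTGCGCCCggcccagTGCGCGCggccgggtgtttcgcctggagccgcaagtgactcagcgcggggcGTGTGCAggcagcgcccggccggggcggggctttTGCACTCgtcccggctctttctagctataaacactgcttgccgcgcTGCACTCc
MT1X: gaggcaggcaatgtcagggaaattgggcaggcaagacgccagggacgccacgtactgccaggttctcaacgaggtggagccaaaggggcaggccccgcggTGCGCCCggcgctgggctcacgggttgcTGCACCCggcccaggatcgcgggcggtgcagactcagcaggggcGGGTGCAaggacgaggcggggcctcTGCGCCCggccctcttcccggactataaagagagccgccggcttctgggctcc
SLC30A1: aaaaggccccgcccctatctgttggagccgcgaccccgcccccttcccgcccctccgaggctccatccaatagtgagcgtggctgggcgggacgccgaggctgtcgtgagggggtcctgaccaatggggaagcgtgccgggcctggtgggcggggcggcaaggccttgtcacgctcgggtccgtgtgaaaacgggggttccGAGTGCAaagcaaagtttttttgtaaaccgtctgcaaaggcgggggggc
MT1H: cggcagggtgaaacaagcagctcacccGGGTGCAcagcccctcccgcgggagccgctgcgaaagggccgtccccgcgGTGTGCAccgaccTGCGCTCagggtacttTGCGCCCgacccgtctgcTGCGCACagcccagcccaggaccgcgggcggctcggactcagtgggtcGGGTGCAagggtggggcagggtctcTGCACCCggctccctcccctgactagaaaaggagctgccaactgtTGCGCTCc
The MT2A promoter held 7 matches, which started from -246 to -8 relative to the gene start. The MT1X promoter held 4 matches, SLC30A1 held 1 match at -49, and MTF1 held 0. Of 35116 promoters of this length, 24.8% held at least 1 match, 0.370% held at least 4 and 0.0313% (11 promoters) held at least 7. MT1H held 8 matches, and MT4 and MT1B, 2 further metallothionein genes listed at 0 in all samples, held 3 each. The E-box CACGTG, to which MYC proteins bind with MAX, was in none of these 7 promoters and in 6.34% of all promoters. The antioxidant response element core TGACNNNGC occurred once each in the promoters of MT2A, MT1X, SLC30A1 and MT1B and in 10.9% of all promoters. No match overlapped another in the 7 promoters.

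The values rested on totals of 29055819 to 34142988 normalized reads per sample, recovered from the RPKM values as described in the processing. The targeted gene MYCN had 1067.9 and 1073.0 RPKM in the Ctrl samples against 720.2 and 718.0 with MYCN KD, or -0.57 on the log2 fold change scale (standard error 0.0286). Its adjusted p was 0.00361, by limma and the Benjamini-Hochberg method, which also gave the adjusted p values of the other genes. All 7 adrenergic neuroblastoma markers examined, among them HAND2, TH and DBH, had a mean RPKM of at least 1, and their summed RPKM was 2763 to 3031 in Ctrl and 3954 to 4333 in MYCN KD. The summed RPKM was 23.0 to 25.1 in Ctrl and 28.5 to 31.1 in MYCN KD for 6 fibroblast markers, 13.7 to 14.5 and 25.6 to 27.1 for 4 epithelial markers, of which KRT5 was at 0, and 5.02 to 6.06 and 11.0 to 13.3 for 4 leukocyte markers, of which PTPRC had at most 1 read. For 3 endothelial markers it stayed at or under 0.638 in all samples. The epithelial sum was mostly KRT19, at a mean of 13.9 RPKM in Ctrl and 25.9 in MYCN KD, while EPCAM had 0.141 and 0.408. The leukocyte sum was mostly CD68, at a mean of 3.86 RPKM in Ctrl and 10.4 in MYCN KD, while CD14 had 1.62 and 1.64. The part of these marker levels in the results below was not tested.

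MT2A, the most abundant metallothionein in these cells, was lower in both MYCN KD samples. MT2A lies on chromosome 16 of GRCh37 (hg19), from 56642496 to 56643409 (plus strand), and has 3 exons. The Ctrl samples had 44.9 and 34.6 RPKM and the MYCN KD samples 7.23 and 9.33 RPKM, from 643, 463, 88 and 121 reads. The groups did not overlap, and the lowest Ctrl value was 3.70 times the highest MYCN KD value. The mean RPKM was 39.8 ± 7.35 (SD, n = 2) for Ctrl against 8.28 ± 1.49 (SD, n = 2) for MYCN KD, which was 4.80-fold lower. On the log2(RPKM + 1) scale the fold change was -2.13 (standard error 0.19), rank 1 of 11409 genes that averaged 1 RPKM or more. The next genes in that order, just outside the value that led to the choice of this list, were SNORD56 at -2.06 (12, 12, 1 and 1 reads), SNORD44 at -1.91 and LTA4H at -1.60. The first place depended on that scale, since MT2A was 8th by the ratio of mean RPKM, where SNORD56 came first at 10.9-fold, and 6th with log2(RPKM + 0.1). Without Ctrl replicate 1 or MYCN KD replicate 1 it was 3rd, and without Ctrl replicate 2 it was 2nd. By level, MT2A stood above 81.7% of the tested genes in Ctrl and above 44.6% in MYCN KD. In these bulk samples, fewer cells expressing a gene and less RNA per cell cannot be told apart.

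MT1X, which also encodes a metal-buffering metallothionein, was lower in both MYCN KD samples as well. It lies from 56716382 to 56718108 on the plus strand of chromosome 16 (GRCh37), 73.0 kb beyond the end of MT2A. The Ctrl samples had 14.5 and 11.2 RPKM and the MYCN KD samples 4.00 and 5.20 RPKM, from 200, 145, 47 and 65 reads. The groups did not overlap. The mean RPKM was 12.9 ± 2.32 (SD, n = 2) for Ctrl against 4.60 ± 0.846 (SD, n = 2) for MYCN KD, and the log2 fold change was -1.31 (standard error 0.18), rank 34 among the falls. Its fold was smaller than that of MT2A, so that the RPKM of MT2A was 3.10 and 3.08 times that of MT1X in the Ctrl samples and 1.81 and 1.79 times in the MYCN KD samples. Both genes were highest in the same sample of each condition. The higher Ctrl sample exceeded the lower 1.30-fold at MT2A and 1.29-fold at MT1X, and the higher MYCN KD sample exceeded the lower 1.29-fold and 1.30-fold. Such mirrored deviations were general, since across the 11409 genes replicate 1 deviated from its condition's mean in opposite ways in Ctrl and MYCN KD (correlation -0.985). The standard errors and adjusted p values rest on this spread of normalized values and may be too small. The spread of the raw counts was not examined here.

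**Figure D1:**
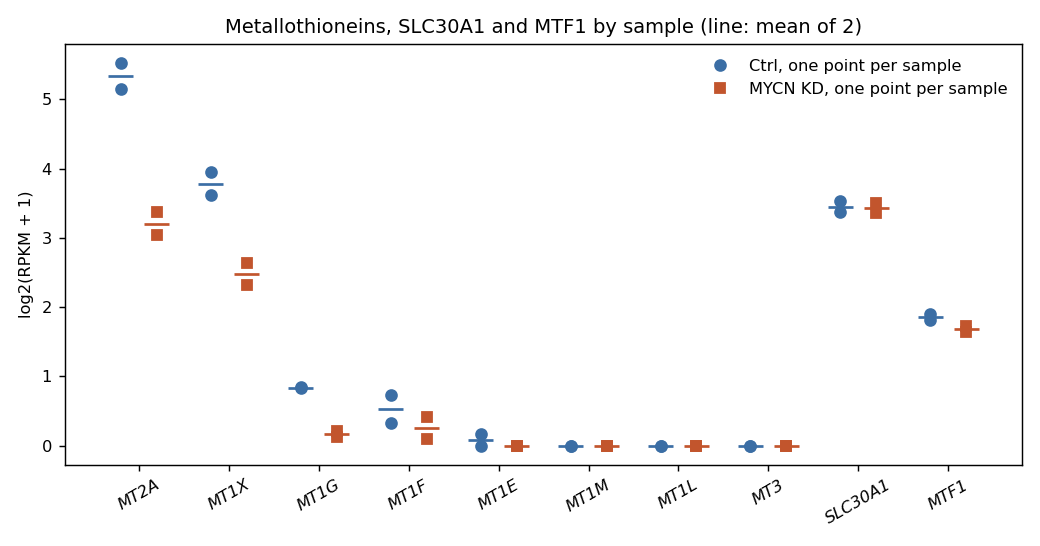
RPKM of the 10 genes on the log2(RPKM + 1) scale (vertical axis), with 2 Ctrl samples as circles, 2 MYCN KD samples as squares and the mean of each condition as a line. MT2A and MT1X sit lower in both MYCN KD samples, SLC30A1 and MTF1 lie close together between the conditions, and MT1M, MT1L and MT3 are at 0.

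MT1G and MT1F, isoforms of the MT1 group, were near the limit of detection. MT1G lies from 56700642 to 56701977 on the minus strand of chromosome 16, the one cluster gene among the members read from that strand. It had 0.795 and 0.772 RPKM in the Ctrl samples against 0.0850 and 0.160 with MYCN KD. These values rest on 11, 10, 1 and 2 reads. Pooled over the samples of a condition and divided by their totals, the ratio of MYCN KD to Ctrl reads was 0.157, with an exact 95% counting interval from 0.0301 to 0.527. The 2 MYCN KD values lay below both Ctrl values. MT1F, from 56691643 to 56694610 on the plus strand, had 0.667 and 0.259 RPKM in the Ctrl samples against 0.0713 and 0.335 with MYCN KD, from 11, 4, 1 and 5 reads. Here the conditions overlapped, and the pooled ratio of 0.441 had an interval from 0.140 to 1.20. These intervals cover counting error of the recovered reads only, not the spread between samples, and are no test of either gene.

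The remaining metallothioneins gave almost no reads. MT1E, from 56659387 to 56661024, was above 0 in Ctrl replicate 2 alone, at 0.124 RPKM, which corresponds to 1 read or a small multiple of it. MT1M, from 56666571 to 56667893, MT1L, a transcribed pseudogene from 56651475 to 56652592, and MT3, the brain metallothionein, from 56622986 to 56625000, were at 0 in all 4 samples. A count of 0 allows up to 3 reads per sample, or 0.0879 to 0.103 RPM (reads scaled to the sample's total, without gene length). MT1A, MT1B, MT1H, MT1HL1, MT4, MT1DP, MT1JP and MT1IP, the metallothionein genes and pseudogenes listed beside the members, were also at 0 in all samples. Of 16 metallothionein genes listed, 5 were thus above 0 in any sample.

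Summed over the 16 genes, the metallothionein RPKM was 60.9 and 46.9 for Ctrl against 11.4 and 15.03 for MYCN KD. The mean was 53.9 ± 9.88 (SD, n = 2) for Ctrl against 13.2 ± 2.57 (SD, n = 2) for MYCN KD, a ratio of 0.245. MT2A made up 73.8% and 73.6% of the sum in the Ctrl samples and 63.5% and 62.1% in the MYCN KD samples. The share of MT1X was 23.8% and 23.9% with Ctrl against 35.2% and 34.6% with MYCN KD. The transcripts of the family are alike, and the counting could divide reads between its members. Of the 50-base words in the canonical transcript, 10.2% were found in another metallothionein transcript for MT2A, 18.0% for MT1X, 19.9% for MT1G, 6.12% for MT1F and 0.0% for MT3. Few reads lie behind MT1E, MT1F and MT1G, and a few misassigned reads could move their values.

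MTF1 was slightly lower in both MYCN KD samples, and SLC30A1 overlapped between the conditions. MTF1, the gene of the metal-sensing factor, lies on chromosome 1 from 38275246 to 38325264 on the minus strand. It had 2.52 and 2.75 RPKM in the Ctrl samples against 2.31 and 2.12 with MYCN KD. Neither MYCN KD value reached the Ctrl values, at a log2 fold change of -0.18 (standard error 0.059), a fall that 29.6% of the tested genes equalled or exceeded. SLC30A1 lies on chromosome 1 from 211744910 to 211752503 on the minus strand. It had 9.35 and 10.5 RPKM in the Ctrl samples against 10.3 and 9.21 with MYCN KD. The conditions overlapped, and the log2 fold change was -0.02 (standard error 0.089), or 0.03 once the samples were rescaled to equal totals. Its sign also turned without Ctrl replicate 2 (0.06) or MYCN KD replicate 2 (0.05).

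Of the 10 members, 4 passed the filter on low values (MT2A, MT1X, MTF1 and SLC30A1), 3 were above 0 but below it and 3 were at 0. Of the 4 tested, MT2A and MT1X were lower at an adjusted p under 0.05 from limma, and 0 were higher. Among all 11409 tested genes, 22.8% were lower and 25.3% were higher by the same rule, 48.1% in all. MYCN KD lay below Ctrl in every pairing of samples in MT2A, MT1X and MTF1, and in 35.8% of all tested genes, and it lay above Ctrl in every pairing in 0 of the 4 tested members and in 40.4% of all tested genes. Since the list was chosen for a fall in this contrast, nothing is read from these counts. With quantile normalization MTF1 was also called lower, at a log2 fold change of -0.28.

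**Figure D2:**
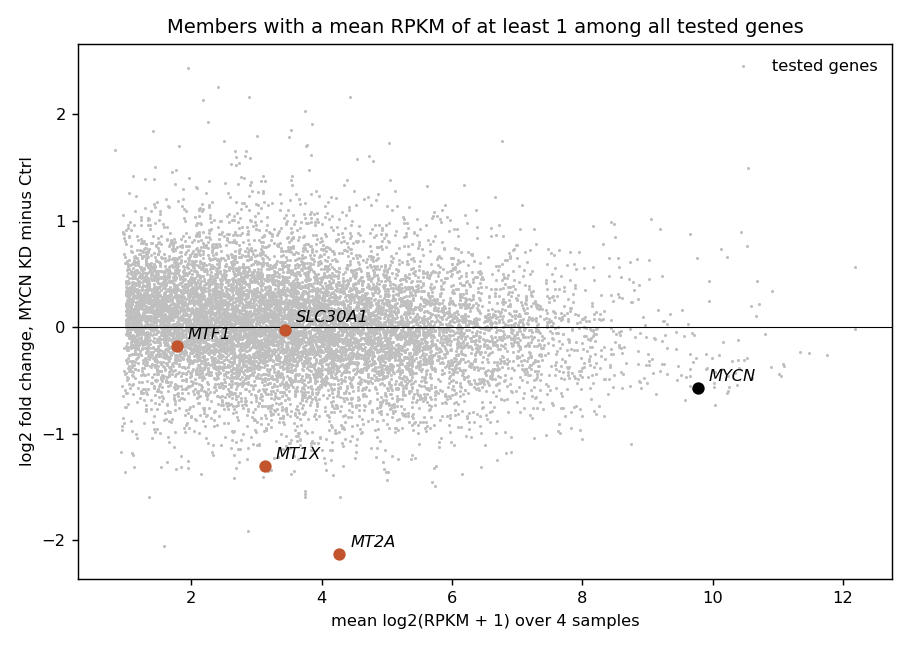
Log2 fold change between MYCN KD and Ctrl (vertical axis) against the mean log2(RPKM + 1) over the 4 samples (horizontal axis) for the 11409 tested genes, with the 4 tested members and MYCN marked. MT2A is the lowest point at -2.13 and MT1X lies at -1.31, while SLC30A1 and MTF1 lie near 0.

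The genes closest to MT2A in pattern were found by the Euclidean distance between log2(RPKM + 1) profiles, each centred on the gene's own mean, over the 4 samples. The 5 closest were SNORD56, a small nucleolar RNA gene (distance 0.413), DDN, which encodes dendrin (0.565), TFAP4, the gene of a helix-loop-helix transcription factor (0.622), LTA4H, which encodes leukotriene A4 hydrolase (0.640), and CCDC86 (0.664). DDN had 35.1 and 30.5 RPKM in the Ctrl samples against 9.50 and 11.0 with MYCN KD, and TFAP4 had 22.8 and 21.3 RPKM in the Ctrl samples against 6.56 and 7.02 with MYCN KD. MT1X came 16th by this measure, at a distance of 0.827. With 2 samples per condition, the measure ranks mainly the size of the fall.

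The chromosomal surroundings of the cluster were not used in choosing the members. This list too was drawn up with earlier results of these data known, and its adjusted p values carry that limit. The metallothionein genes from MT4 to MT1X span 119.1 kb between BBS2, which overlaps the MT4 gene on the other strand, and NUP93, and 10 genes around them were examined. Of the 7 that passed the filter, OGFOD1 and NUP93 were lower and BBS2 was higher at an adjusted p under 0.05 from limma, a share of 42.9% called against 48.1% of all tested genes, and their median log2 fold change was 0.09 against 0.03 over all tested genes. OGFOD1, which encodes a prolyl hydroxylase of a ribosomal protein, had 44.2 and 45.7 RPKM in the Ctrl samples against 28.3 and 27.4 with MYCN KD (log2 fold change -0.67, standard error 0.041, adjusted p = 0.00423 from limma). NUP93, a nuclear pore gene that starts 45.9 kb beyond MT1X, had 56.5 and 55.0 RPKM in the Ctrl samples against 44.2 and 45.3 with MYCN KD (log2 fold change -0.31, adjusted p = 0.00990 from limma). BBS2, a gene of the ciliary BBSome on the other side of the cluster, had 4.23 and 4.62 RPKM in the Ctrl samples against 5.80 and 5.32 with MYCN KD (log2 fold change 0.27, adjusted p = 0.0452 from limma). The share called was thus near that of all tested genes, and no direction is read from these calls. OGFOD1, on the same side of the cluster as BBS2, was lower. With the replicate block, the calls on BBS2 (adjusted p = 0.223 from limma) and NUP93 (adjusted p = 0.0761) were lost. The call on BBS2 was lost as well without Ctrl replicate 2 or MYCN KD replicate 2. BBS2 also lost its call without Ctrl replicate 1 or MYCN KD replicate 1, and GNAO1, named here for this after its values were seen, then passed.

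**Figure D3:**
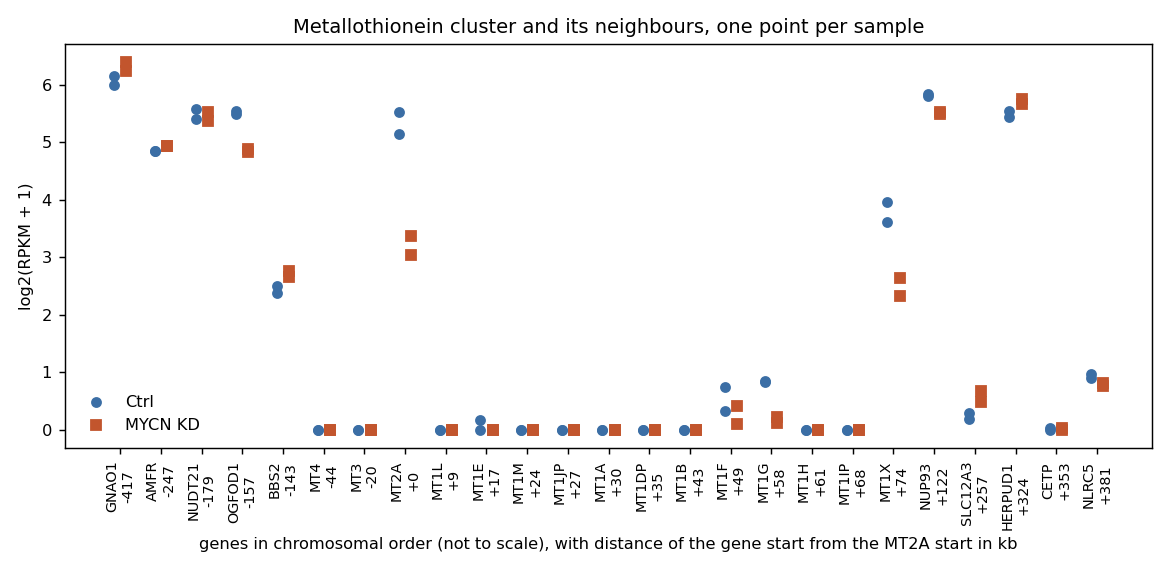
Log2(RPKM + 1) of the metallothionein cluster and 10 neighbouring genes in chromosomal order, with circles for the 2 Ctrl samples, squares for the 2 MYCN KD samples and the distance from the MT2A start in kb under each name. MT2A and MT1X stand above 1 within a row of genes at or near 0, and NUP93 and OGFOD1 are lower and BBS2 is higher in MYCN KD.

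The other zinc transporters were examined as the genes that set free zinc together with SLC30A1. Of 9 further genes of the SLC30 family of zinc transporters, 5 passed the filter, 2 were higher and 0 were lower, with a median log2 fold change of 0.07. Of all tested genes, 25.3% were higher and 22.8% were lower. SLC30A9 had 13.0 and 14.8 RPKM in the Ctrl samples against 20.8 and 18.4 with MYCN KD (log2 fold change 0.47, standard error 0.097, adjusted p = 0.0302 from limma). SLC30A4, which loads vesicles with zinc, had 0.807 and 0.883 RPKM in the Ctrl samples against 1.41 and 1.30 with MYCN KD (log2 fold change 0.35, adjusted p = 0.0130 from limma). Its Ctrl mean of 0.845 RPKM was below the filter, so SLC30A4 was tested only through its level in MYCN KD. Its call is thus a description and was lost with the replicate block (adjusted p = 0.0589 from limma). Without Ctrl replicate 1 or without MYCN KD replicate 1, SLC30A6 passed as well and 1 SLC30 gene was lower.

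Of 14 SLC39 genes, which bring zinc into the cytosol, 9 passed the filter. Of these, 3 were higher at an adjusted p under 0.05 from limma and 1 was lower, with a median log2 fold change of 0.02. The share called was 44.4%, against 48.1% of all tested genes (25.3% higher and 22.8% lower). SLC39A13 had 9.95 and 8.95 RPKM in the Ctrl samples against 15.5 and 17.2 with MYCN KD (log2 fold change 0.73, standard error 0.083, adjusted p = 0.00908 from limma). SLC39A14, which carries zinc and also iron and manganese, fell from 53.1 and 58.2 RPKM in Ctrl to 41.8 and 38.3 RPKM in MYCN KD (log2 fold change -0.47, standard error 0.075, adjusted p = 0.0178 from limma). SLC39A6 and SLC39A11 rose, with log2 fold changes of 0.43 (adjusted p = 0.0475 from limma) and 0.30 (adjusted p = 0.0409), the latter not passing without Ctrl replicate 1 or MYCN KD replicate 1. SLC39A10, a zinc importer that MTF-1 is known to repress, had 7.14 and 9.05 RPKM in the Ctrl samples against 12.7 and 10.1 with MYCN KD and did not pass the threshold (log2 fold change 0.45, standard error 0.17, adjusted p = 0.106 from limma). Without Ctrl replicate 2 or MYCN KD replicate 2, SLC39A10 passed as higher and SLC39A4 as lower, so that 2 SLC39 genes were lower. SLC39A10 also passed with the replicate block (adjusted p = 0.0272 from limma). Without any filter on low values, the calls on SLC39A6 and SLC39A11 were lost and 1 SLC39 gene was higher.

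Copper handling genes were examined because metallothioneins also hold copper. Of 14 genes, 12 passed the filter, 6 were higher and 3 were lower (adjusted p under 0.05 from limma), with a median log2 fold change of 0.13. These 9 calls among 12 stand beside 48.1% of all tested genes (25.3% higher and 22.8% lower). The copper-exporting ATPase ATP7A had 2.64 and 3.30 RPKM in the Ctrl samples against 6.96 and 5.61 with MYCN KD (log2 fold change 0.87, standard error 0.14, adjusted p = 0.0182 from limma). The copper transporters SLC31A2 and SLC31A1 rose by 0.70 (adjusted p = 0.00819 from limma) and 0.47 (adjusted p = 0.0127) on the log2 scale. STEAP3, a metalloreductase of iron and copper, fell by 0.58 (adjusted p = 0.00505 from limma) and SCO1, which delivers copper to cytochrome c oxidase, fell by 0.47 (adjusted p = 0.00627). With any 1 of the 4 samples left out, 3 genes were higher and not 6, since ATP7B, CCS and COMMD1 no longer passed.

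Of 18 genes of the metal and oxidative stress response, 15 passed the filter, 3 were higher and 4 were lower (adjusted p under 0.05 from limma), with a median log2 fold change of -0.12. The share called was 46.7%, against 48.1% of all tested genes. HMOX1, the heme oxygenase gene that metals and oxidants induce, had 9.04 and 8.63 RPKM in the Ctrl samples against 17.9 and 18.7 with MYCN KD (log2 fold change 0.97, standard error 0.049, adjusted p = 0.00361 from limma). NQO1, a quinone reductase gene, rose by 0.52 on the log2 scale (adjusted p = 0.00605 from limma). TXNRD1, which encodes thioredoxin reductase, had 52.7 and 59.2 RPKM in the Ctrl samples against 37.7 and 33.8 with MYCN KD (log2 fold change -0.63, standard error 0.092, adjusted p = 0.0147 from limma). GCLC, which makes the first step of glutathione synthesis, and SRXN1, a sulfiredoxin, had log2 fold changes of -0.51 (adjusted p = 0.0227 from limma) and -0.46 (adjusted p = 0.0113). Many genes of this list are known targets of the factor NRF2, and called genes lay in both directions.

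Of 12 glucocorticoid response genes, 8 passed the filter, 3 were higher and 1 was lower (adjusted p under 0.05 from limma), with a median log2 fold change of 0.13. These 4 calls among 8 stand beside 48.1% of all tested genes. TSC22D3, which encodes the glucocorticoid-induced leucine zipper, had 10.5 and 10.5 RPKM in the Ctrl samples against 18.8 and 18.7 with MYCN KD (log2 fold change 0.79, standard error 0.036, adjusted p = 0.00359 from limma). SGK1, a kinase gene, rose by 0.65 (adjusted p = 0.00605 from limma) and ERRFI1 by 0.17 (adjusted p = 0.0418) on the log2 scale, and with any 1 sample left out the call on ERRFI1 was lost and CRISPLD2, at a log2 fold change of 0.52 (adjusted p = 0.0739 with all samples), passed in its place. FKBP5, a co-chaperone of the glucocorticoid receptor, had 14.5 and 15.97 RPKM in the Ctrl samples against 10.6 and 9.63 with MYCN KD (log2 fold change -0.55, standard error 0.078, adjusted p = 0.0142 from limma). Without Ctrl replicate 2 or MYCN KD replicate 2, PER1 passed as well and 2 genes were lower. NR3C1, the gene of the receptor itself, was below the filter at 0.108 and 0.116 RPKM in the Ctrl samples against 0.255 and 0.232 with MYCN KD. Over all tested genes of these related lists, 18 of 56 were higher and 11 were lower, with a median log2 fold change of 0.00753. The share called was 51.8%, against 48.1% of all tested genes.

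**Figure D4:**
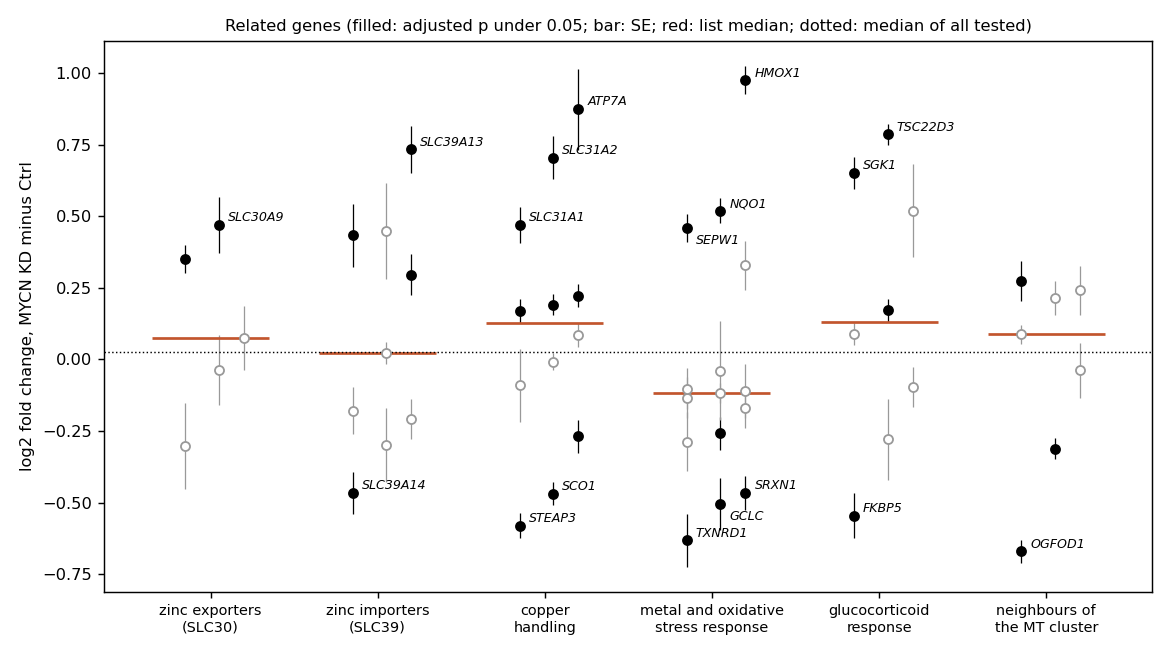
Log2 fold change between MYCN KD and Ctrl (vertical axis) of the tested genes in 6 related lists, with bars for the standard error, filled points for an adjusted p under 0.05, red lines for list medians and a dotted line for the median of all tested genes at 0.03. Every list holds filled points, and 5 of the 6 lists hold them on both sides of 0, from HMOX1 at 0.97 to OGFOD1 at -0.67.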

How the data were processed

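RNA-seq data came from 4 samples of BE(2)C cells (Ctrl and MYCN KD, n = 2 each), grouped by their labels. The submitters' processing notes name HISAT2 2.1.0, featureCounts, DESeq2 and hg19, and the study's methods add RefSeq genes and RUVSeq. The authors deposited RPKM values of the normalized counts. The RUVSeq variant is not given in the sources used here, and raw counts were not used here. Of 26364 rows per sample, 4 with a repeated date-like name were left out.

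Small RNA genes of known length gave the total behind each sample (92.9% to 94.1% came out within 0.01 of a whole number). Each gene's reads were then the fewest that were whole, within at most 0.02 of a read, in every sample where the gene was above 0. All 19904 genes above 0 allowed this with the length left free, which is a weak check for the 1640 genes above 0 in 1 sample. They are normalized reads, and a gene's true reads may be a multiple of them.

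log2(RPKM + 1) was fitted with limma 3.58.1 in R 4.3.3 (lmFit, eBayes with a trend, no block) for the 11409 genes averaging 1 RPKM or more, and p was adjusted by Benjamini-Hochberg (threshold 0.05). Low genes are understated on this scale. Whether samples came from separate cultures is not given in the labels, so p-values measure only the spread left between these normalized samples. That spread can lie below counting error, as for TSC22D3 at 10.455 and 10.461 RPKM in Ctrl from 1002 and 939 recovered reads. Standard errors and adjusted p values may therefore be too small. With 2 against 2, an exact permutation test of 1 gene cannot go below p = 0.333 (two-sided). The members and lists were chosen with earlier results of these data known. Named were all members, listed metallothioneins, up to 5 called genes per list, SLC39A10, HMOX1, NR3C1, FKBP5, NUP93, BBS2, MYCN and the 5 genes closest to MT2A. Positions came from GENCODE release 44 lifted to GRCh37, and Python 3.11.15 was used. Genes named only because a left-out sample changed their call were chosen after their values were seen. The fit was tested on simulated counts drawn independently for each sample. They lack the mirrored deviations of the real values, so that test cannot show how many calls here are false. Alternatives were another pseudocount, other filters, 2 scalings, a replicate block, no trend in eBayes and leaving out each sample. Chosen once the data had been seen were a crossed replicate block and a limma voom fit to the recovered reads. Protein sequences were not used here, and 2 genes of the lists are not reported here by name.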

Additional observations from a re-analysis of the deposited data

How the results depend on the processing

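MT2A, MT1X, the summed metallothionein level and MYCN kept their direction under each alternative run on them, and MYCN moved from -0.57 to -0.38 with quantile normalization. SLC30A1 ran from -0.10 to 0.06 with a sample left out. The log2 fold change of MT2A ran from -2.32 to -1.95 and that of MT1X from -1.48 to -1.13 with a sample left out. MTF1 moved from -0.18 to -0.24 with log2(RPKM + 0.1), -0.28 with quantile normalization and -0.25 with limma voom on the recovered reads. The count of members called lower is no test of a list chosen on this contrast. It rose from 2 to 3 without a filter (MT1G) and with quantile normalization (MTF1), and to 4 with the crossed replicate block. Over all genes, 2598 of 11409 were lower in the fit used above and 2592 of 19904 without a filter. Quantile normalization gave 2997 of 11409 lower, and the crossed block gave 5261 lower and 11170 called in either direction.

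Same-numbered samples deviated in opposite ways in these normalized values (correlation -0.985). Whether the replicate numbers pair the samples cannot be told from this, since raw counts were not used. With the replicate block, 3925 of the 11409 genes were called, against 5487 without it. In the lists, 1 SLC30 gene, 3 copper genes and 0 cluster neighbours were then higher and 1 neighbour was lower. The calls on SLC30A4, SLC39A11, ERRFI1, BBS2 and NUP93 were lost among others, and those on SLC39A10 and CRISPLD2 were gained among others. With the crossed replicate block, 2 SLC30, 4 SLC39, 5 copper, 11 stress response and 3 glucocorticoid genes were lower, and 5 SLC39, 5 glucocorticoid and 4 neighbouring genes were higher, of 11170 genes called in all.

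With a mean RPKM of at least 5, 1 SLC30 gene and 0 neighbours were higher. Without a filter, 2 SLC39 genes were lower, and 1 SLC39 gene and 0 neighbours were higher. Quantile normalization gave 3 neighbours higher and rescaling to the same total 4. With a sample left out, 0 to 1 SLC30, 1 to 2 SLC39 and 1 to 2 glucocorticoid genes were lower, and 3 copper genes and 0 to 1 neighbours were higher. The other alternatives kept each list's counts within 1.5 times. The causes were not tested. Over all genes, the no-filter fit gave 3383 higher and 2592 lower of 19904, rescaling gave 3278 and 2121, quantile normalization 2881 and 2997, and a mean RPKM of at least 5 gave 1867 and 2105. Depth limits MT1E, MT1F and MT1G, which rest on at most 11 reads per sample.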
